A study of Mus musculus with 4 samples.

Results

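Tcstv1, Tcstv3, Duxf3, Tdpoz4, Zfp352, Zscan4c and Zscan4d are genes whose transcripts mark the 2-cell-like state of mouse embryonic stem cells. The 7 genes were taken by name from the GENCODE M21 annotation of mm10, which holds 21938 protein-coding genes on the numbered chromosomes, X and Y. They were set against a list of 26496 peaks of ALaP-seq, a method in which the peroxidase APEX, joined to the PML protein, attaches biotin to chromatin near PML bodies. Of those peaks, 39 lay within 50 kb of the start of 1 or more of the 7 genes.

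All 4 samples were E14 mouse embryonic stem cells that carried the APEX-PML knock-in, in medium with leukemia inhibitory factor, CHIR99021 (an inhibitor of GSK3) and PD0325901 (an inhibitor of MEK). In 2 samples hydrogen peroxide, which starts the labelling, was given, and in the other 2 it was left out as the control. The peak list is a merged one that names no sample. It gives positions only, so no value per sample, no depth, no spread between replicates and no comparison with the control samples can be given, and every count below describes this 1 list. Expression of the genes was not measured in the data used here, so the label of 2-cell-like genes was not checked against their RNA.

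The 2-cell-like state is a rare, reversible state of cultured embryonic stem cells that resembles the embryo at the time its genome is switched on. The homeobox factor Dux, made from the Duxf3 locus, binds and activates endogenous retroviral elements of the MERVL family and many genes near them. Among its targets are the Zscan4 genes, which code for zinc finger proteins tied to telomere upkeep, and Zfp352, which codes for another zinc finger protein. The Tcstv genes code for short proteins of the 2-cell stage, and the Tdpoz genes for proteins with TRAF and POZ domains. Most of these genes sit in clusters of near-identical copies, so a short read from one copy can be hard to assign.

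The sequences below show how alike such copies are where the list placed a peak beside 3 of the genes. Each block gives the sequence under a peak and its copies elsewhere, read along the gene's strand in GRCm38, the assembly that mm10 names, and capitals mark bases that differ between the peak and a copy. No copy shown here overlapped a peak. The peak upstream of Tcstv3 spans chr13:120315893-120316001 on the plus strand. Its copies lie upstream of Tcstv1, at chr13:119895646-119895754 on the minus strand, and of Gm21818, at chr13:120171484-120171592 on the plus strand.
Tcstv3: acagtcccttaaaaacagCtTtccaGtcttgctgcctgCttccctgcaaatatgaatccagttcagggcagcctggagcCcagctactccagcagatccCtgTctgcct
Tcstv1: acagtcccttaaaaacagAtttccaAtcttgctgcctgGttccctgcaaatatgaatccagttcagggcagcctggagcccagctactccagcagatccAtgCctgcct
Gm21818: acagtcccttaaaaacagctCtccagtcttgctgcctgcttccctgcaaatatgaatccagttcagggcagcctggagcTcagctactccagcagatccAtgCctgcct
The Tcstv1 copy differed from the peak at 5 of 109 bases (95.4% identity) and the Gm21818 copy at 4 (96.3%).

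The longer of the peaks in the coding sequence of Duxf3 spans chr10:58231271-58231483 on the minus strand. Its copies lie on the same strand in AW822073, at chr10:58223592-58223804, and in the pseudogene Gm10807, at chr10:58228477-58228664, where the first 25 bases of the peak had no aligned counterpart.
Duxf3: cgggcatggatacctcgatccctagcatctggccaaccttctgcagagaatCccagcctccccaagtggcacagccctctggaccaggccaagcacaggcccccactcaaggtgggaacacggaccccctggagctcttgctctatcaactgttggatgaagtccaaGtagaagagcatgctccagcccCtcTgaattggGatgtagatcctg
AW822073: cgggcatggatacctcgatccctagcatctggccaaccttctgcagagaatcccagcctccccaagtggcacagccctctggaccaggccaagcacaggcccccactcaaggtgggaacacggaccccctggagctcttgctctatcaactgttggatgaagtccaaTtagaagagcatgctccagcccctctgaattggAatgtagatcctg
Gm10807: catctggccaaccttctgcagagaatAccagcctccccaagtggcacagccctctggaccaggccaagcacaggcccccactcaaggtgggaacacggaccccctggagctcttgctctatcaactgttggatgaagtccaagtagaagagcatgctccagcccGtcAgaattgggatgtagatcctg
The AW822073 copy differed at 2 of 213 bases (99.1% identity) and the Gm10807 copy at 3 of its 188 bases (98.4%).

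The peak upstream of Tdpoz4 spans chr3:93795510-93795600 on the plus strand. Its copies lie upstream of the pseudogene Gm5541, at chr3:93630539-93630629 on the minus strand, and beside Gm4858, at chr3:93072239-93072329 on the plus strand.
Tdpoz4: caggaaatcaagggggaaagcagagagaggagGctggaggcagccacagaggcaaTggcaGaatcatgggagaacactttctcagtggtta
Gm5541: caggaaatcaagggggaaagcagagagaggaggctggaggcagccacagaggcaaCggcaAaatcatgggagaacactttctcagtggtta
Gm4858: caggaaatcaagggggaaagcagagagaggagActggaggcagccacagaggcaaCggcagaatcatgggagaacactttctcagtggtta
Each of these copies differed from the peak at 2 of 91 bases (97.8% identity).

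A peak counted as at the start when 1 bp or more of it fell no farther than 1 kb from the 5′ end of the gene model, on either side. By this count 3 of the 7 genes had a peak at the start, namely Tcstv3, Duxf3 and Tdpoz4. Over all protein-coding genes the share was 38.4%. A duplicated neighbour was another gene within 500 kb to which at least 50% of the gene's own transcript aligned, at 90% identity or more. Over the 1910 protein-coding genes with such a neighbour the share with a start peak was 5.97%. None of the 3 genes had a peak within 500 bp of the start, and the nearest base of a peak lay 677 bp downstream for Duxf3, 798 bp upstream for Tdpoz4 and 877 bp upstream for Tcstv3. Tcstv1 came next, with its nearest peak 4.66 kb downstream.

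A peak inside the gene, between its annotated start and end, was present at 2 of the 7 genes, Tcstv3 and Duxf3. Among all protein-coding genes 44.4% had one. For Duxf3 both peaks were wholly exonic. For Tcstv3 a peak of 3192 bp covered 360 bp at the 3′ end of the gene, of which 255 bp were coding and 105 bp untranslated, and continued for 2832 bp beyond it.

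Within 50 kb of the start, 4 of the 7 genes had any peak. This was the case for 69.3% of all protein-coding genes and for 28.1% of those with a duplicated neighbour. Tcstv3 had 13 peaks, Tdpoz4 12, Tcstv1 8 and Duxf3 6, and Zfp352, Zscan4c and Zscan4d had 0. The median over all protein-coding genes was 2 peaks, with quartiles of 0 and 4, and the 90th percentile was 7. As many peaks as Tcstv3 or more were found at 1.55% of protein-coding genes, as Tdpoz4 at 2.08%, as Tcstv1 at 7.57% and as Duxf3 at 14.7%. The 3 genes with 0 peaks were at the lower quartile.

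**Figure D1:**
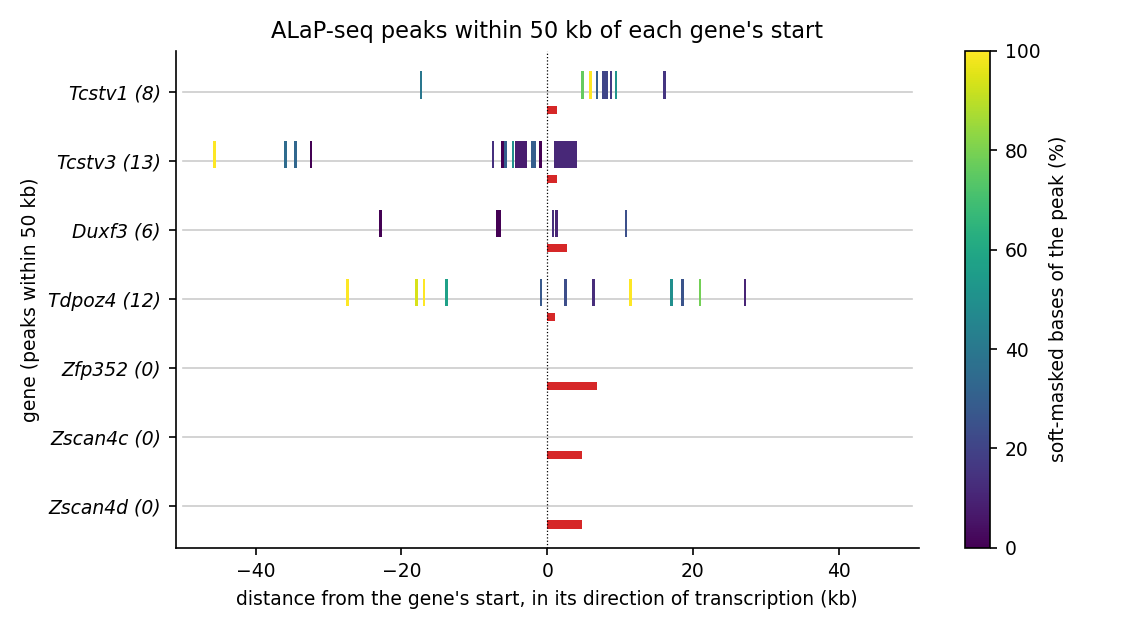
Peaks within 50 kb of the start of each gene, by distance in kb along the direction of transcription, with 1 row per gene, its number of peaks in brackets and the gene as a red bar. Blocks are peaks to scale, with narrow ones widened to 0.35 kb so that they can be seen, and their colour gives the soft-masked share. Tcstv1, Tcstv3, Duxf3 and Tdpoz4 have 8, 13, 6 and 12 peaks, and the rows of Zfp352, Zscan4c and Zscan4d are empty.

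Tcstv3 (ENSMUSG00000095821) lies at chr13:120316878-120318178 on the plus strand, close to the end of the assembled chromosome. Of its 13 peaks 12 were upstream and 1 downstream of the start. Only 4.76 kb of sequence follow the start, and 45239 bases of the window of 50 kb either side are undetermined. The downstream peak, of 3192 bp, ran from 941 to 4132 bp after the start, and 6 peaks of the whole list, itself included, were as wide or wider. It ended 629 bp before the last base of chromosome 13 that is not N, after which 100 kb of undetermined sequence follow. It was the last peak of its chromosome. On 9 of the 21 chromosomes the last peak lay within 1 kb of the end of the sequence, and the median distance over chromosomes was 3.11 kb. A last peak this close to the end was thus found on several chromosomes, and on the other chromosomes it measured between 113 and 2070 bp.

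Upstream of Tcstv3, 8 peaks lay between 0.88 and 7.54 kb from the start. The widest of them measured 1604 bp and 690 bp, and the nearest was the 109 bp peak printed above, at 877 to 985 bp. A further 4 peaks lay 32.3 to 45.7 kb upstream. Together the 13 peaks covered 7686 bp, against 2214 bp in the 8 peaks of Tcstv1, 1870 bp in the 12 of Tdpoz4 and 1213 bp in the 6 of Duxf3.

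Tcstv1 (ENSMUSG00000096284), at chr13:119893388-119894785 on the minus strand, had no peak at the start or in the gene. Of its 8 peaks 7 were downstream and 1 upstream. This split cannot be set against that of Tcstv3, where little sequence follows the start. From 4.66 to 9.50 kb after the start 6 peaks followed each other, and the widest of these measured 827 bp. The upstream peak, of 96 bp at 17.3 kb, overlapped the neighbouring Tcstv copy Gm21761.

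Tcstv1 and Tcstv3 lie 422 kb apart and belong to 1 cluster. Their transcripts aligned at 92.6% identity, and each had 5 duplicated neighbours, namely the other of the pair, Gm21761, Gm20767, Gm21818 and AF067061. Aligning the whole Tcstv1 gene to the surrounding 1 Mb on either side found these and 1 further full-length copy, 34.3 kb upstream of Tcstv3 on the same strand, at chr13:120282559-120283951. It aligned to Tcstv1 at 93.9% identity, and GENCODE M21 has no gene on that strand there. Between the starts of Tcstv1 and Tcstv3 the list had 33 peaks, or 78.2 per Mb, against 10.01 per Mb over the ungapped genome.

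With the sequences so alike, the peaks could be read at matching positions of the 7 copies. The 5′ end of a copy was taken from its alignment to Tcstv1, and for Tcstv1 and Tcstv3 from the gene model. For Gm21761 and Gm20767 the aligned 5′ end, at chr13:119913450 and chr13:120153936, lies inside the annotated gene. Their gene models start at chr13:119929272 and chr13:120140246. Only Tcstv3 and the unannotated copy had a peak within 1 kb of the 5′ end. At the unannotated copy this was a peak of 418 bp, from 411 bp before the 5′ end to 6 bp after it. The same stretch at the starts of Tcstv1, Gm21818 and Tcstv3 was 95.7%, 96.9% and 96.4% identical to it, and none of the 3 had a peak there. This peak is 1 of the 13 peaks of Tcstv3, since it lies 34.5 kb upstream of that gene. At 80% identity Tcstv1 had 7 duplicated neighbours and Tcstv3 9. Among those of Tcstv3 only D13Ertd608e, 481 kb away and 82.2% identical, had a start peak.

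The 3′ part of the copies was read as well. Its window was chosen from the peaks seen, so its count cannot be compared with that at the start. At Tcstv3 the peak in it was the one of 3192 bp, which also counted at the start. From 1.1 to 1.4 kb after the 5′ end, a window chosen after the positions were seen, a peak was present at 4 of the 7 copies, namely Tcstv3, Gm21761, Gm21818 and AF067061, and at neither Tcstv1, Gm20767 nor the unannotated copy. Within 10 kb of the aligned 5′ end the count of peaks was 9 at Tcstv3, 6 at Tcstv1 and 6 at Gm21818. It was 3 at the unannotated copy, 2 at AF067061, 1 at Gm21761 and 0 at Gm20767. From the start of its gene model, the nearest peak of Gm20767 was 1.52 kb away.

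**Figure D2:**
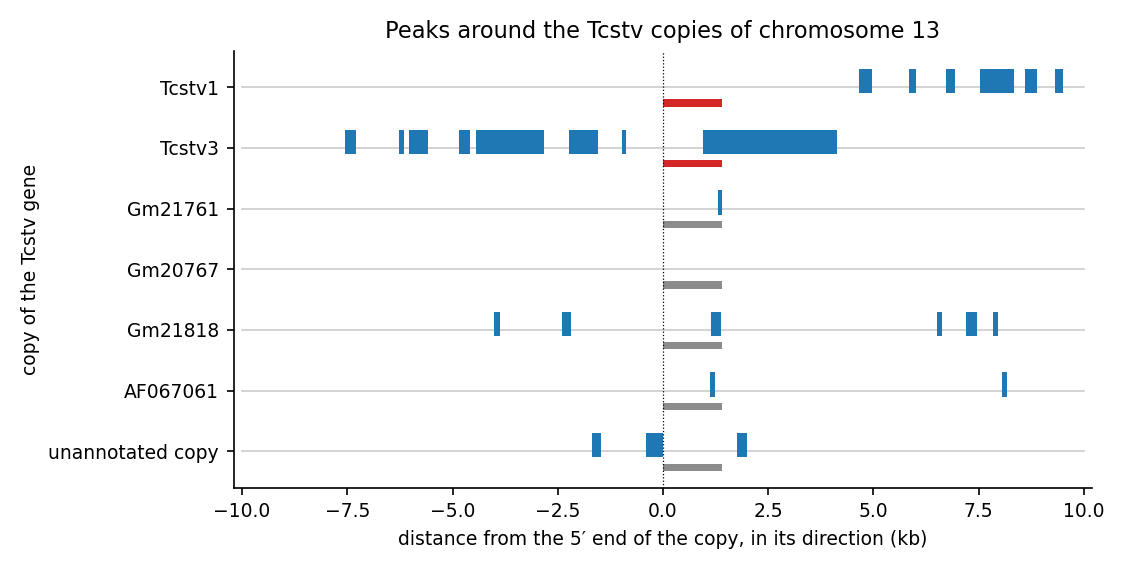
Peaks (blue, to scale) within 10 kb of the aligned 5′ end of each of the 7 copies of the Tcstv gene on chromosome 13. Distance is in kb along the direction of the copy, and the 5′ end of Gm21761 and Gm20767 lies inside the annotated gene. The bars under the lines mark the first 1.4 kb of a copy, red for Tcstv1 and Tcstv3 and grey for the others; Tcstv3 has 9 peaks in this range and Gm20767 has 0.

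Duxf3 (ENSMUSG00000075046), the Dux gene, lies at chr10:58229979-58232675 on the minus strand. The start peak, of 171 bp, lay 677 to 847 bp after the start, in an exon that is coding in one transcript model and untranslated in another. The second peak in the gene, of 213 bp, lay 1192 to 1404 bp after the start, wholly in coding sequence. The copies of these peaks in AW822073, 97.7% and 99.1% identical, had no peak, and the body of that gene and of Gm10807 had none either. The RefSeq promoter table places the start of Duxf3 415 bp farther upstream, which puts the nearest peak 1092 bp away, outside the window of 1 kb.

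Of the other 4 peaks around Duxf3, a pair of 137 and 97 bp lay 6.49 to 6.92 kb upstream and 1 of 196 bp lay 10.7 kb downstream. All 3 had copies at 95% identity or more inside the Dux array, between 2 and 4 each, and no copy overlapped a peak. The remaining peak, of 399 bp and 22.7 kb upstream, overlapped an exon of Gcc2, which codes for a Golgi protein. It had no copy, no soft-masked base and a GC content of 72.2%. An assembly gap of 343 kb ends 26.8 kb from the Duxf3 start, and 23191 bases of the window of 50 kb either side are undetermined.

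Tdpoz4 (ENSMUSG00000060256), at chr3:93796398-93797510 on the plus strand, stood in an isolated group of peaks. Its 12 peaks spanned 54.7 kb, with 5 upstream and 7 downstream of the start, and no further peak followed for 213 kb on the one side and 486 kb on the other. They measured between 91 and 284 bp, and 1 of the 12 was at least as wide as the median of all peaks. The peak at the start, of 91 bp, was among the narrowest in the list, where 63 peaks were as narrow. None of the 12 peaks overlapped a gene.

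The only duplicated neighbour of Tdpoz4 at 90% identity within 500 kb was Gm5541, an unprocessed pseudogene 167 kb away. The Tdpoz4 transcript aligned to it over 100% of its length at 97.3% identity. No peak lay within 50 kb of Gm5541, against 12 at Tdpoz4. At 80% identity 11 neighbours counted, of which the nearest, Gm5773, 23.4 kb away and 80.7% identical, had 11 peaks within 50 kb. Of the other Tdpoz genes, Tdpoz3 had 11 peaks within 50 kb, which it shares with Tdpoz4, but its nearest peak was 2.42 kb from the start. Tdpoz1, Tdpoz2 and Tdpoz5 had 0 peaks within 50 kb.

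Zfp352 (ENSMUSG00000070902), at chr4:90218820-90225702 on the plus strand, was 924 kb from the nearest peak. The stretch without peaks around it measured 2.01 Mb and held 3 protein-coding genes, Zfp352, Cdkn2b and Dmrta1. Of the 26475 stretches between neighbouring peaks 123 were as long or longer, and on the autosomes alone 94 of 26249. With the mean density of the list over unmasked bases the stretch would hold 18.7 peaks. Zfp352 was the only one of the 7 genes with no duplicated neighbour at 90% identity; at 80% the processed pseudogene Gm12633 counted as one.

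Zscan4c (ENSMUSG00000054272), at chr7:11005745-11010547 on the plus strand, and Zscan4d (ENSMUSG00000090714), at chr7:11161374-11166159 on the minus strand, lie 160 kb apart in 1 stretch of 2.46 Mb without a peak. The nearest peak was 988 kb from Zscan4c and 1148 kb from Zscan4d. This stretch held 33 protein-coding genes, among them 8 of the Zscan4 family and the Vmn1r and Vmn2r genes, which code for vomeronasal receptors. Zscan4c had 6 duplicated neighbours and Zscan4d 8, all in the same stretch and all without a peak within 50 kb. With the mean density the stretch would hold 19.1 peaks on its unmasked bases, and 79 of the 26475 stretches between neighbouring peaks were as long or longer, 52 of them on the autosomes. Among all protein-coding genes 2.56% were as far from a peak as Zfp352 or farther, 2.32% as Zscan4c and 1.90% as Zscan4d.

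The authors mapped to a repeat-masked genome, so the soft-masked share, the bases written in lower case in the RefSeq copy of GRCm38, was recorded for each peak. This mask may differ from the one that the authors used. Of the bases under the 39 peaks 25.4% were soft-masked, against 16.4% under all peaks and 36.4% of the ungapped genome. At least 50% of the bases were masked in 11 of the 39 peaks (28.2%) and in 10.7% of all peaks. No base was masked in 7 of the 39 (17.9%) and in 41.1% of all peaks.

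The 4 genes with peaks differed in this share. Under the peaks of Tdpoz4 56.5% of the bases were masked, with 3 of the 12 peaks wholly masked and a range of 10.5 to 100%. At Tcstv1 the share was 38.4%, at Tcstv3 16.9% and at Duxf3 7.67%, where the most masked peak reached 24.5%. The ranges of the single peaks overlapped between all 4 genes. The window of 50 kb either side was masked over 49.5% at Tdpoz4, 46.6% at Tcstv1, 36.9% at Tcstv3 and 32.8% at Duxf3. At the genes without peaks it was 54.9% at Zfp352, 55.4% at Zscan4c and 56.6% at Zscan4d, which left 45.1, 44.6 and 43.4 kb unmasked in the 100 kb. Close to the start, within 1 kb either side, 64.8% was masked at Zfp352 but 16.4% at Zscan4c and 14.6% at Zscan4d, against 12.5% to 20.4% at the 4 genes with peaks nearby. The part of masking in the missing peaks was not tested.

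**Figure D3:**
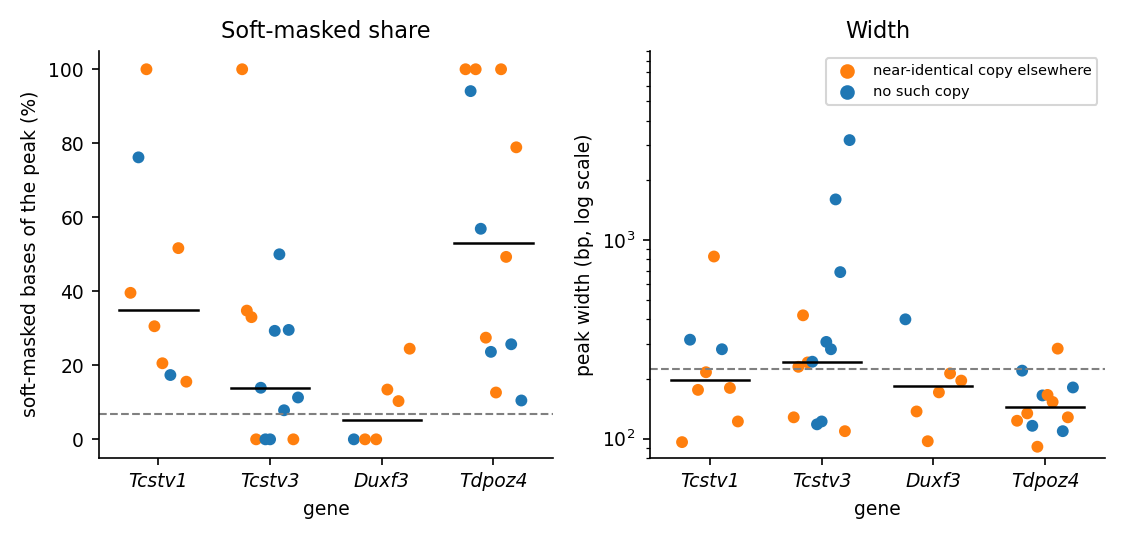
Soft-masked share (%, left) and width (bp, log scale, right) of each peak within 50 kb of the 4 genes that have any, with a black line at the median of the gene and a dashed line at the median of all peaks, 6.81% and 223 bp. Orange points are peaks with a copy elsewhere at 95% identity over 80% of the length, blue points peaks with none; the peaks of Tdpoz4 are the most masked and the narrowest by the median.

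The 39 peaks had a median width of 180 bp (quartiles 126 and 282 bp), and 25 were narrower than the median of all peaks, 223 bp. Their median GC content was 46.6%, against 55.8% in all peaks. The median width was 244 bp at Tcstv3, 198 bp at Tcstv1, 184 bp at Duxf3 and 144 bp at Tdpoz4.

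Near-identical copies were common under these peaks. A copy elsewhere in the genome, at 95% identity or more over at least 80% of the peak, was found for 23 of the 39 peaks (59.0%). In a search that skipped masked sequence as seed, the one run on the whole list, 16 of the 39 (41.0%) had a copy, against 3.20% of all peaks. In that share, 1205 peaks of the whole list with no unmasked seed count as peaks without a copy, though none could be sought. Of the 23 peaks, 20 had a copy within 1 Mb. For 16 every copy lay within 1 Mb. A wholly masked peak of Tcstv1 had 35 copies and a wholly masked peak of Tdpoz4 had 337, and the other 21 had between 1 and 7 copies each.

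Whether a copy lay under a peak was counted for these peaks only. With no such share over all peaks beside it, the count is not shown to be low or high. Of the 23 peaks 21 had no copy that overlapped a peak. The exceptions were the 827 bp peak of Tcstv1, whose copy near Gm21818 overlapped 2 peaks, and the 242 bp peak 32.4 kb upstream of Tcstv3, whose copy lay under the 3192 bp peak. By gene, 6 of 8 peaks had a copy at Tcstv1, 5 of 13 at Tcstv3, 5 of 6 at Duxf3 and 7 of 12 at Tdpoz4. At each of these 23 peaks, which copy gave the reads cannot be told from the list. The widest peaks of Tcstv3, of 3192, 1604 and 690 bp, had no copy at this threshold.

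CpG content at the start ranged from the 6.87th percentile of protein-coding genes at Tcstv3 to the 41.4th at Duxf3. The ratio of observed to expected CpG over 500 bp either side was 0.422 at Duxf3, 0.245 at Tdpoz4, 0.152 at Zfp352, 0.151 at Zscan4d, 0.114 at Tcstv1, 0.104 at Zscan4c and 0.0903 at Tcstv3. With all protein-coding genes divided by this ratio into 10 classes of equal size, from the lowest, Tcstv3 and Zscan4c were in class 1, where 0.866% of genes had a start peak. Tcstv1, Zfp352 and Zscan4d were in class 2 (2.64%), Tdpoz4 in class 3 (5.105%) and Duxf3 in class 5 (34.3%). So Tcstv3 and Tdpoz4 had a start peak in classes where few genes did, and the 4 genes without one were in classes 1 and 2.

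RefSeq promoters of GRCm38.p6, from 250 bases before to 50 after the start, were listed for 5 of the 7 genes, Duxf3, Tdpoz4, Zfp352, Zscan4c and Zscan4d. The word GATTNAATC, described for Dux, was searched on both strands and matched once in the promoter of Duxf3 and in none of the other 4. Of 32851 promoters 0.268% held it. The word TGCACAC, described for Zscan4, matched in none of the 5 and in 4.40% of all promoters. Among the 39 peaks 0 held the Dux word and 2 the Zscan4 word (5.13%), against 0.125% and 4.68% of all peaks. The words do not overlap each other, and a match is a match of letters only.

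Of 35 other genes of the 2-cell-like state 2 had a start peak, against 38.4% of all protein-coding genes and 5.97% of those with a duplicated neighbour. They were Snai1, a repressor of epithelial genes, with a peak of 440 bp over its start, and Zfp750, a zinc finger gene, with a peak of 193 bp at 36 bp from it. A peak in the gene was present at 6 of the 35 (AF067061, Gm20767, Gm21761, Sp110, Snai1 and Patl2) and any peak within 50 kb at 17, with a median of 0 peaks. Over all protein-coding genes these shares were 44.4% and 69.3%, and 28.1% of those with a duplicated neighbour had any peak within 50 kb. The other Zscan4 genes of the list, Zscan4a, Zscan4b, Zscan4e and Zscan4f, had 0 peaks within 50 kb, as did Zscan4c and Zscan4d, and so did the 5 Usp17l genes.

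Genes reported to act on the state were taken as a further list, in which 15 of 19 had a start peak. Of 4 genes reported to favour it, 3 had a start peak, namely Dppa2, a DNA-binding factor upstream of Dux, with 249 bp, Nelfa, the gene for a subunit of the negative elongation factor, with 181 bp and Trp53, the gene for p53, with 285 bp as the widest. Dppa4, the partner of Dppa2, had none within 19.8 kb. Of 15 genes reported to hold the state back, 12 had a start peak, among them Rif1, a replication timing factor, with 812 bp, and Sumo2, a SUMO protein, with 562 bp. A start peak was also present at Chaf1a, Chaf1b, Setdb1, Kdm1a, Ehmt2, Zmym2, Lin28a, Ncl and Ythdc1, and the 3 genes without one were Trim28, Pcgf6 and Smchd1. Against the 38.4% of all protein-coding genes, these counts were not tested. The CpG class of these 19 genes, with which the share varies, was not set beside them.

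**Figure D4:**
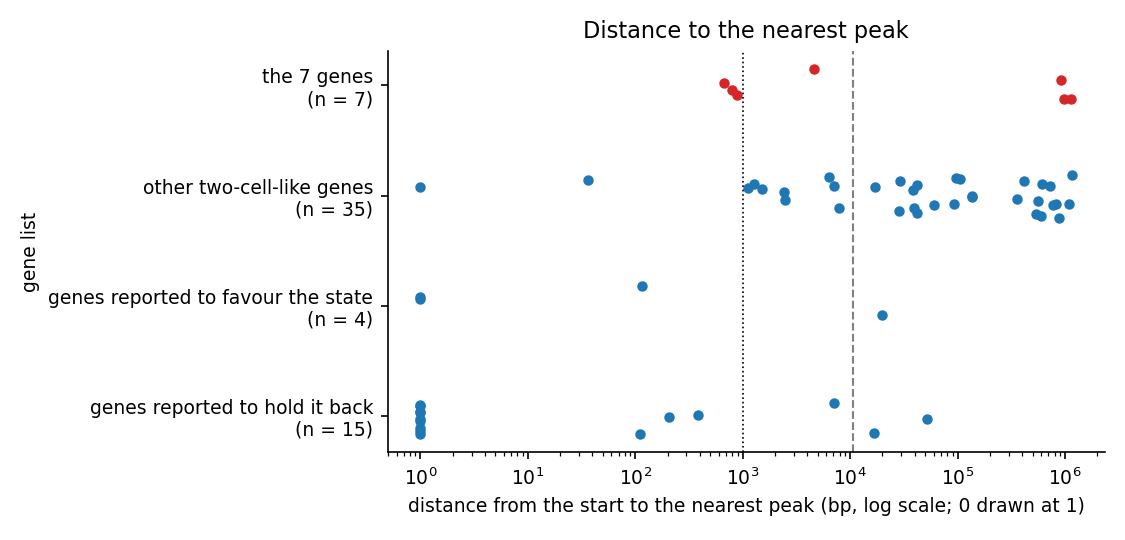
Distance in bp (log scale, 0 drawn at 1) from the start of each gene to the nearest peak, for the 7 genes in red and for 3 lists of related genes in blue, with 1 point per gene spread vertically for display. The dotted line marks 1 kb and the dashed line the median of all protein-coding genes, 10693 bp; 3 of the 7 genes lie left of the dotted line and 3 lie 924 kb or more from a peak.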

How the data were processed

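ALaP-seq was done on 2 samples with and 2 without hydrogen peroxide. Per the series' design text and the submitters' processing notes, trimming was by Trimmomatic, mapping by Bowtie2 2.3.5.1 to a repeat-masked mm10, and bedtools removed blacklisted and greylisted regions. For the peak caller and the merging rule, none is given in the sources used here. The authors deposited 1 merged list of peak positions, with no height or score. A peak counted where it shared at least 1 bp with a window. Copies and duplicated neighbours were sought with BLAST 2.17.0, sequences were read with pysam 0.24.0 and differing bases marked with biopython 1.88. The functions were tested on simulated data, where 200 of 200 planted peaks were placed correctly.

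The members and lists were chosen with earlier results of these data known, so no test was run. All 7 members are named, with listed genes that have a start peak, of which 1 is not reported here, and genes nearest to a described peak. Duplicated neighbours and other genes without a start peak were named after their values were seen.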

Additional observations from a re-analysis of the deposited data

How the results depend on the processing

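The count of genes with a start peak stayed 3 with a window of 2 kb, any transcript start, or peaks placed by midpoint. With RefSeq starts where listed, an alternative chosen after seeing the data, it was 2 (Tcstv3 and Tdpoz4). Tcstv1 and Tcstv3 have no RefSeq start listed and kept their GENCODE starts. The count fell to 0 with a window of 500 bp, and to 1 (Tcstv3) with peaks at least as wide as the median or without copied peaks. A copied peak was one with a copy over at least 80% of its length, so wide peaks with a shorter copied stretch were kept. The count of 2 genes with a peak in the body became 1 under each of midpoint placement (Duxf3), wider peaks (Tcstv3) and no copied peaks (Tcstv3), and stayed 2 with exons only. The 39 peaks within 50 kb were 14 with wider peaks, 16 without copied peaks, 31 within 20 kb and 51 within 100 kb. Zfp352, Zscan4c and Zscan4d had 0 peaks under each of these. The masked share of 25.4% was 25.7% as the median per peak and 19.0% in wider peaks. A duplicated neighbour was found for 5 genes at 95% identity, 7 at 80%, 6 at an aligned share of 80% and 5 within 100 kb. Of the other 2-cell-like genes 5 had a start peak with 2 kb, 1 with wider peaks and 2 in the rest, and 12 to 15 of 19 regulators did, also chosen after seeing the data. The causes were not tested. No paired analysis was possible because the list names no sample. Depth is unknown, and a missing peak does not show that no signal was there.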
